A study of Mus musculus with 18 samples.

Results

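The oxygen-sensing arm of the HIF pathway was followed through 6 genes, of 78239 with a count: the HIF prolyl hydroxylases *Egln1*, *Egln2* and *Egln3*, the HIF asparaginyl hydroxylase *Hif1an*, the ubiquitin ligase subunit *Vhl* and the membrane-bound prolyl hydroxylase *P4htm*. They were listed by their role in the pathway, but with earlier results of these data known, so the shares called below are descriptive. Retinal RNA came from 5 mice injected subretinally with AAV::eGFP and 5 with AAV::*nsHif1a* at postnatal days 29 to 32 and was collected 3 weeks post injection (wpi). The virus carried a normoxia-stable *Hif1a* (*nsHif1a*), in which the prolines and the asparagine hydroxylated by these enzymes are replaced, under the mouse rhodopsin promoter, which is active in rods. Only part of each retina was transduced. The labels give the strain as C57BL/6J, whereas the methods of the study name 129S6. The second system was 661W, a single mouse photoreceptor-like line derived from a retinoblastoma, with 4 libraries transfected with CMV-eGFP and 4 with CMV-*nsHif1a* plasmid and harvested after 20 h. The sources used do not tie the 4 libraries of a group to separate cultures, so their *p*-values measure the spread between libraries, which may be technical.

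In normal oxygen the EGLN enzymes hydroxylate prolines of HIF alpha proteins. The VHL protein binds the hydroxylated prolines and, with elongins, cullin and RBX1, marks the HIF alpha protein for degradation. HIF1AN hydroxylates an asparagine in the C-terminal activation domain, which blocks binding of coactivators. *Egln1* and *Egln3* are known HIF target genes, so that HIF activity raises the transcripts of enzymes that remove HIF, and photoreceptors are among the heaviest users of oxygen in the body. The comparison of nsHif1a with eGFP asks whether a HIF1A that escapes these enzymes alters their transcripts.

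HIF binds DNA at the core ACGTG or GCGTG. The 250 bases before the RefSeq transcription start of the 6 genes, read from RefSeq and placed on GRCm39 by a single exact match each, are shown for the 3 prolyl hydroxylases and *Vhl*, because the responses of these 4 are set against each other below. Capitals mark ACGTG or GCGTG, or the reverse complement of either.
Egln1: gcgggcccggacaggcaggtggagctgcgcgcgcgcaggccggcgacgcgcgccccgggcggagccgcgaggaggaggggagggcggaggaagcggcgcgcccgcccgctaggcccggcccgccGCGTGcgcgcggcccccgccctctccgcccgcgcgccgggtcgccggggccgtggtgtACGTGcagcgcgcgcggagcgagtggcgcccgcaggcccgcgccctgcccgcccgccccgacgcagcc
Egln2: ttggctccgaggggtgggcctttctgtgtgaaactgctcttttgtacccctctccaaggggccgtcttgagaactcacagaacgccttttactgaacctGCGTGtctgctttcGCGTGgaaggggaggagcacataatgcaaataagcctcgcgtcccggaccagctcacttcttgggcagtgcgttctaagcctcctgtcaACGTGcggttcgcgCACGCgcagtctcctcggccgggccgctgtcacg
Egln3: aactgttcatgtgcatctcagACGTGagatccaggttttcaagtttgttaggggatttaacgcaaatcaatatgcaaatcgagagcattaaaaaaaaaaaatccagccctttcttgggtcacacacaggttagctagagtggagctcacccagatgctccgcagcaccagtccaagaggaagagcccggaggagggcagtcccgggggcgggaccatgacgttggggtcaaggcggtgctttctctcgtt
Vhl: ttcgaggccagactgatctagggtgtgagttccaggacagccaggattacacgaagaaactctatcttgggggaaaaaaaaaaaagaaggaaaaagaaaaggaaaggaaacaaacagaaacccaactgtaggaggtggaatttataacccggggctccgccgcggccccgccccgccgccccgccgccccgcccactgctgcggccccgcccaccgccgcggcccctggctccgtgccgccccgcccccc
The windows lie at chr8:125675994-125676243 on the minus strand for *Egln1*, chr7:26866228-26866477 on the minus strand for *Egln2*, chr12:54250661-54250910 on the minus strand for *Egln3* and chr6:113600705-113600954 on the plus strand for *Vhl*. The *Egln1* window held an ACGTG 68 bases before the start and a GCGTG 126 bases before it, and the *Egln3* window a single ACGTG 229 bases before the start. *Egln2*, which was not called in either experiment, held 4 such matches in this window. A further *Egln2* start had 1 GCGTG in its window. The *Vhl*, *Hif1an* and *P4htm* windows held no such letters. Of 32851 promoter windows of the same length, 16.6% held ACGTG, 28.2% GCGTG and 38.6% either, counted on both strands. At least 2 matches of either were held by 16.7% of the windows and at least 4 by 2.58%. The matches are letters in a short window, not sites shown to be bound.

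On GRCm39 with gencode M39, *Egln1* spans chr8:125635308-125676865, and its RefSeq start lies 872 bases inside the annotated gene. *Egln2* spans chr7:26853588-26866408, *Egln3* chr12:54225767-54250673, *Hif1an* chr19:44551286-44568723, *Vhl* chr6:113600920-113608599 and *P4htm* chr9:108456018-108475010. The counts cover all exons of a gene. *Egln2* shares 1620 exonic bases with *Cyp2t4* on the opposite strand, and the counting kept the strands apart. At most 2.85% of the 50-base words of a member's transcripts occurred in transcripts of other genes, the highest share being that of *Egln2*.

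The libraries held 12898220 to 17809585 counts. *Hif1a* itself rose in the transfected cells, from 150.0 to 164 CPM (counts scaled to the library total by TMM) in the eGFP libraries to 1222, 1242, 1954 and 1825 CPM in the nsHif1a libraries (log2 fold change 3.26, limma adjusted *p* = 1.2e-05). In the retina it lay at 638 to 698 CPM with eGFP and 642 to 729 CPM with nsHif1a (log2 fold change 0.05, adjusted *p* = 0.50), so total *Hif1a* RNA does not check the retinal labels. The summed CPM of 10 rod markers ranged from 49482 to 54650 in eGFP retinas and from 38757 to 51571 in nsHif1a retinas, whereas in 661W it was 13.4 to 18.5 CPM, with *Nrl*, *Nr2e3* and *Prph2* at 0 in the nsHif1a cells. The 8 cone markers summed to 1.10 to 2.25 CPM in 661W. All 5 nsHif1a retinas and eGFP replicates 1 and 2 had 19492 to 28595 counts of *Xist*, the X-inactivation transcript, against 1 to 3 counts in eGFP replicates 3 to 5. Summed gamma-crystallins, genes of the lens, ranged from 634 to 2817 CPM in eGFP and from 920.0 to 18956 CPM in nsHif1a retinas. In 661W, replicates 1 and 2 stood apart from replicates 3 and 4.

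In the retina, *Egln1* and *Egln3*, the prolyl hydroxylases known to be induced by HIF, rose with nsHif1a, and no other gene of the 6 was called. All 6 genes passed the filter on low counts. Called were 2 of 6, both up, against 1.99% of the 18859 genes tested that were called in either direction and 1.08% that were called up (limma, Benjamini-Hochberg adjusted *p* under 0.05 and absolute log2 fold change above 0.5). The median log2 fold change of the 6 was 0.09, beside -0.0021 for all genes tested.

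*Egln1*, the main prolyl hydroxylase of HIF1A in normoxia, was at 96.3, 100.2, 113, 100.1 and 116 CPM in the eGFP retinas (replicates 1 to 5) and at 184, 286, 248, 261 and 351 CPM in the nsHif1a retinas. Every nsHif1a retina lay above every eGFP retina. The fold change was 2.46 (log2 1.30, SE 0.12, 95% confidence interval 1.03 to 1.57, adjusted *p* = 0.00018), and 162 of the 18859 genes had a larger one. *Egln3*, the prolyl hydroxylase with the lowest level of the 3 in eGFP retinas, was at 7.49, 11.95, 8.04, 7.53 and 7.98 CPM with eGFP and at 20.99, 55.5, 39.01, 42.5 and 72.5 CPM with nsHif1a. Here too the groups did not overlap, which held in the upward direction for 3.25% of all genes tested. The fold change was 5.20 (log2 2.38, SE 0.34, 95% confidence interval 1.64 to 3.11, adjusted *p* = 0.002), the 46th largest.

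The spread of *Egln3* among nsHif1a retinas was wide, from 2.44 to 8.44 times the eGFP mean, and that of *Egln1* ran from 1.75 to 3.34 times. The 5 nsHif1a retinas stood in the same order for both genes, with replicate 1 lowest, then 3, 4, 2 and 5. Replicate 1 also had the highest rod marker sum of the nsHif1a retinas, 51571 CPM, and replicate 5 the lowest, 38757 CPM. The same 2 retinas were the extremes for the cone markers (941 and 790 CPM) and the Muller glia markers (4738 and 4204 CPM), so this was not particular to rods. In bulk RNA, fewer cells of a type and less RNA per cell cannot be told apart, and the share of transduced rods per retina was not measured here. The microglia and macrophage markers (7 genes) summed to 51.2 CPM in replicate 1 and 151 CPM in replicate 5, and to 26.7 to 151 CPM in eGFP retinas. The 6 endothelial markers summed to 257 CPM in replicate 1, 327 CPM in replicate 5 and 217 to 274 CPM in eGFP retinas, and 1 of the 6, *Kdr*, passed the adjusted *p* alone (log2 fold change 0.26, adjusted *p* = 0.049). Their part in the result was not tested.

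**Figure D1:**
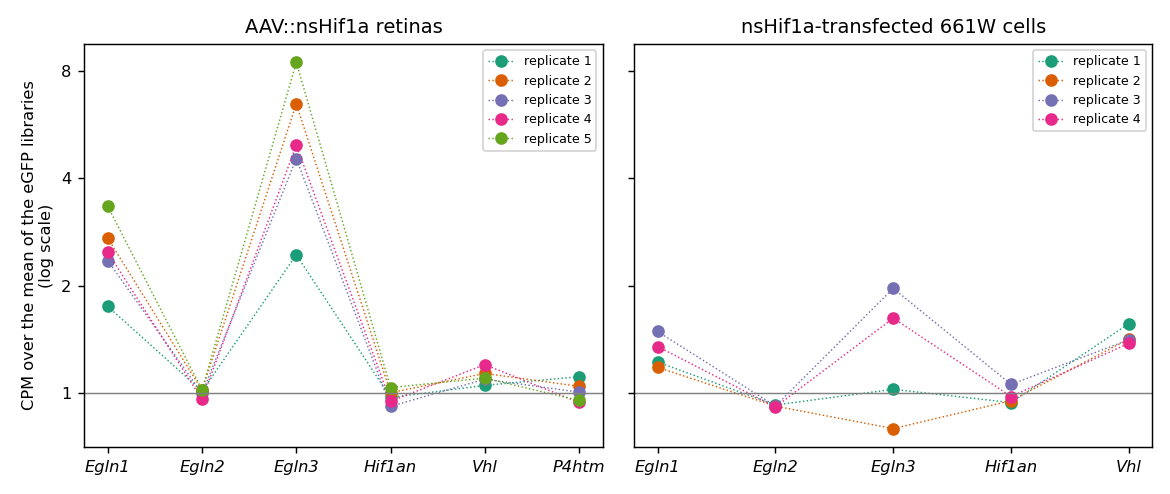
CPM of each gene in every nsHif1a library divided by the mean of the eGFP libraries of the same experiment, on a log axis, with points of 1 library joined by a dotted line in its colour. In the retina *Egln1* and *Egln3* lie above 1 in all 5 libraries in the same order, from 1.75 to 3.34 and from 2.44 to 8.44, whereas in 661W *Egln3* lies between 0.797 and 1.97; *P4htm* is not drawn for 661W, where it had 3 to 12 counts.

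With the *Xist* class of each retina as a covariate, *Egln1* kept a log2 fold change of 1.40 (adjusted *p* = 0.0016) and *Egln3* 2.17 (adjusted *p* = 0.041). Among the 7 retinas with *Xist* counts alone, 2 of them eGFP, *Egln1* gave 1.41 (adjusted *p* = 0.013), while *Egln3* gave 2.17 and lost the call (adjusted *p* = 0.085). These fits are not separate checks. No nsHif1a retina lacked *Xist* counts, so both set the nsHif1a retinas against eGFP replicates 1 and 2. In the covariate fit the other eGFP retinas add to the estimate of variance alone. With the gamma-crystallin level as a covariate the log2 fold changes were 1.54 for *Egln1* and 2.89 for *Egln3*, both called.

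The other 4 genes were not called in the retina. *Vhl*, the substrate-binding subunit of the ligase, was at 40.1, 38.8, 42.3, 37.1 and 41.3 CPM with eGFP and at 42.1, 45.4, 43.8, 48.1 and 44.1 CPM with nsHif1a. Only nsHif1a replicate 1 fell within the eGFP range. Its log2 fold change of 0.16 (SE 0.05, 95% confidence interval 0.05 to 0.27) did not pass the correction (adjusted *p* = 0.081). *Egln2*, the prolyl hydroxylase not known to be induced by hypoxia, lay at 43.3 to 46.8 CPM with eGFP and 43.0 to 45.7 CPM with nsHif1a. Its log2 fold change was 0.01 (95% confidence interval -0.07 to 0.10, adjusted *p* = 0.88). *Hif1an* lay at 77.1 to 84.1 and 74.2 to 83.8 CPM (95% confidence interval of the log2 fold change -0.13 to 0.06, adjusted *p* = 0.70). *P4htm*, an endoplasmic reticulum enzyme that can also hydroxylate HIF alpha, lay at 57.9 to 65.0 and 58.4 to 68.9 CPM (-0.08 to 0.14, adjusted *p* = 0.80).

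**Figure D2:**
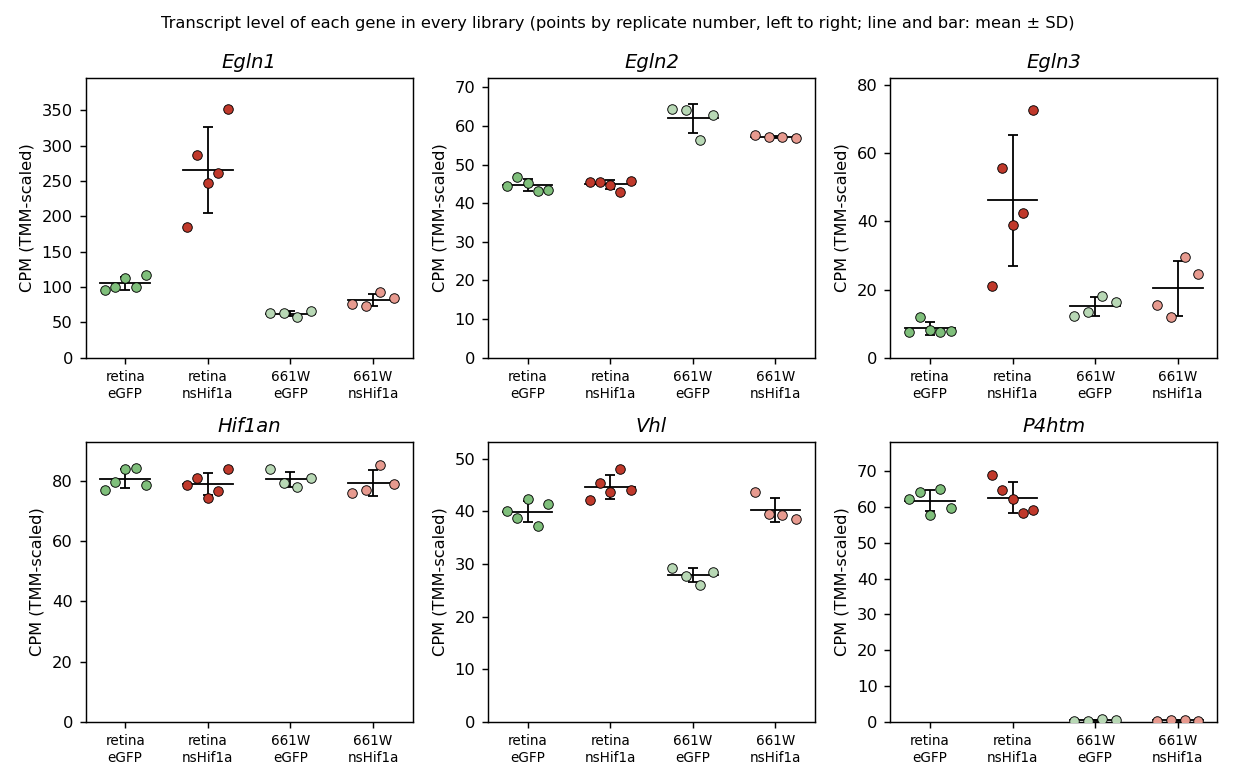
CPM (scaled by TMM within each experiment) of the 6 genes in each of the 18 libraries, with points in order of replicate number and the mean ± SD of each group in black. *Egln1* and *Egln3* separate the retinal groups without overlap, *Vhl* separates the 661W groups, and *P4htm* reaches at most 0.706 CPM in 661W.

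In 661W cells the pattern was different: *Vhl* passed both thresholds, *Egln1* passed the adjusted *p* alone, and *Egln3* passed neither. Of the 6 genes, 5 were tested, since *P4htm* had only 3 to 12 counts per library, and 1 of 5 was called, against 1.27% of the 15962 genes tested. With the adjusted *p* alone, 2 of 5 passed, both upward, against 2.06% of all genes, and 1.21% of all genes were called up with both thresholds. The median log2 fold change of the 5 was 0.34, beside -0.0013 for all genes.

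*Vhl* was at 29.2, 27.7, 26.1 and 28.4 CPM in the eGFP cells and at 43.7, 39.6, 39.4 and 38.5 CPM in the nsHif1a cells. All 4 nsHif1a libraries lay above all 4 eGFP libraries, which was so for 7.51% of genes tested in the upward direction. The fold change was 1.45 (log2 0.53, SE 0.06, 95% confidence interval 0.39 to 0.67, adjusted *p* = 0.0033). The estimate sits close to the limit of 0.5, and the call was lost on that limit without eGFP replicate 3 (0.498), nsHif1a replicate 1 (0.482) or nsHif1a replicate 2 (0.491), while the adjusted *p* stayed between 0.00032 and 0.01 whichever library was left out. It was 0.55 within replicates 1 and 2 and 0.52 within replicates 3 and 4.

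*Egln1* was at 62.6, 62.7, 57.7 and 65.9 CPM with eGFP and at 76.2, 73.6, 92.8 and 84.2 CPM with nsHif1a. The groups did not overlap. The fold change of 1.30 (log2 0.38, SE 0.07, 95% confidence interval 0.21 to 0.55, adjusted *p* = 0.035) stayed under the limit on size, and the adjusted *p* rose to 0.086 in the fit blocked by replicate number, to 0.08 without eGFP replicate 1 and to 0.077 without eGFP replicate 2. *Egln3* was at 12.2, 13.5, 18.2 and 16.4 CPM with eGFP and at 15.5, 12.02, 29.7 and 24.5 CPM with nsHif1a. Replicates 3 and 4 of nsHif1a lay above all eGFP libraries, and replicates 1 and 2 within or below their range. The log2 fold change over all libraries was 0.34 (SE 0.25, 95% confidence interval -0.23 to 0.90, adjusted *p* = 0.48). It turned to -0.07 without nsHif1a replicate 3 and -0.06 without replicate 4, and passed both thresholds without replicate 1 (0.78, adjusted *p* = 0.049) or replicate 2 (0.79, adjusted *p* = 0.025).

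The labels name no batch, and the split into replicates 1 and 2 and replicates 3 and 4 was chosen after seeing these data. The *p*-values within and between these sets are therefore descriptive. Within replicates 3 and 4, *Egln3* rose by a log2 fold change of 0.63 (SE 0.13, adjusted *p* = 0.0039) and *Egln1* by 0.53 (SE 0.06, adjusted *p* = 8.6e-06). Within replicates 1 and 2 the values were 0.11 (SE 0.14, adjusted *p* = 0.59) for *Egln3* and 0.26 (SE 0.06, adjusted *p* = 0.0024) for *Egln1*. The difference between the sets was 0.52 for *Egln3* (adjusted *p* = 0.048) and 0.27 for *Egln1* (adjusted *p* = 0.031), in a test that 19.6% of all genes passed. For *Vhl* the difference was -0.03 (SE 0.10, adjusted *p* = 0.90). *Hif1a* was at 1222 and 1242 CPM in nsHif1a replicates 1 and 2 and at 1954 and 1825 CPM in replicates 3 and 4. The summed microglia and macrophage markers also differed between the sets, at 43.4 and 44.8 CPM in nsHif1a replicates 2 and 1, 16.5 and 17.8 CPM in replicates 3 and 4, and 17.9 to 22.4 CPM with eGFP. In the same order of nsHif1a replicates 1 to 4, the Muller glia markers summed to 2531, 2720, 3149 and 3194 CPM (3243 to 3307 with eGFP) and the endothelial markers to 3.66, 4.22, 8.19 and 6.64 CPM (6.42 to 7.99 with eGFP). Over all libraries of the cells, the tested genes of each list moved both ways with nsHif1a, and none was called. For microglia and macrophages the log2 fold changes were 0.57 for *Tmem119* and -1.38 for *Csf1r*. For Muller glia they were 0.74 for *Dkk3*, -0.61 for *Glul* and -0.18 for *Vim*. For the endothelium they were 0.91 for *Pecam1*, -1.34 for *Cdh5* and -0.48 for *Kdr*. The sums in this single line are not read as amounts of cell types. The part of *Hif1a* or of the sums in the difference was not tested.

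*Egln2* was at 56.4 to 64.4 CPM in the eGFP cells and at 56.8 to 57.6 CPM in the nsHif1a cells, a log2 fold change of -0.11 (95% confidence interval -0.24 to 0.02, adjusted *p* = 0.30). *Hif1an* lay at 78.0 to 83.9 and 75.9 to 85.3 CPM (adjusted *p* = 0.77). The counts of *P4htm* in 661W were 3, 5, 12 and 5 with eGFP and 6, 5, 10 and 5 with nsHif1a. In the 661W libraries 3 counts correspond to 0.168 to 0.223 CPM. At this depth no difference in *P4htm* was detectable in the cells.

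The effect of nsHif1a differed between retina and 661W for 3 of the 6 genes, in a fit of all 18 libraries with a term for the difference, which 2.33% of 20999 genes passed (limma, adjusted *p* under 0.05). The effect on *Egln1* was larger in the retina, by 0.89 on the log2 scale (SE 0.18, adjusted *p* = 0.017, or 0.15 with no filter on low counts). That on *Egln3* was larger in the retina by 1.91 (SE 0.48, adjusted *p* = 0.043), which lost the threshold in 10 of 18 fits that left out 1 library (adjusted *p* 0.051 to 0.083 in those; the lowest in the other 8 was 0.0021). That on *Vhl* was smaller in the retina (difference on the log2 scale -0.36, SE 0.08, adjusted *p* = 0.021, or 0.053 with replicate blocks for cells and retinas). No difference was called for *Egln2* (0.13, 95% confidence interval -0.0031 to 0.27), *Hif1an* (-0.02, -0.16 to 0.12) or *P4htm* (-0.06, -0.93 to 0.81), the last with hardly any counts in the cells. Retina and cells also differ in promoter, delivery, time and the share of cells that carry the transgene, which cannot be told apart from the kind of cell.

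**Figure D3:**
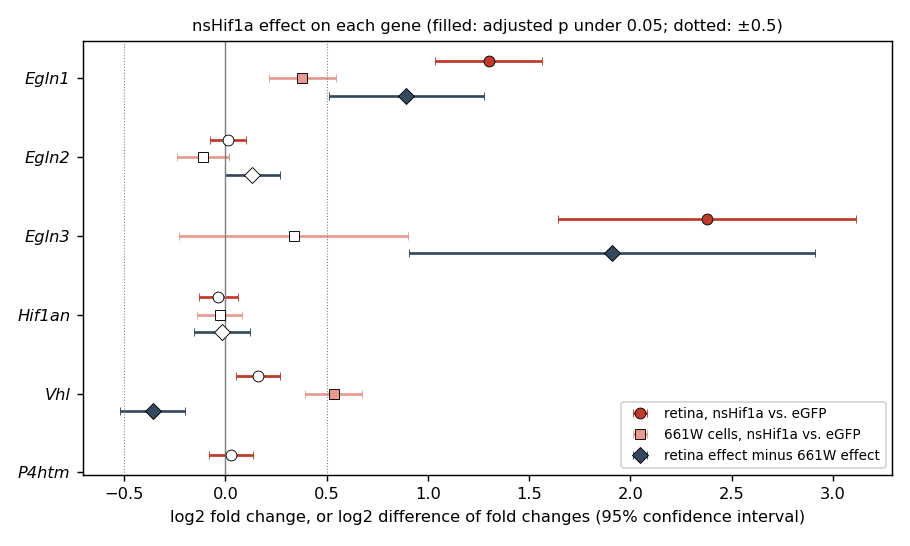
Log2 fold change of nsHif1a against eGFP in the retina (circles) and in 661W (squares) and the difference between them (diamonds), with 95% confidence intervals, filled where the adjusted *p* is under 0.05 and with dotted lines at ±0.5. *Egln1* and *Egln3* stand at 1.30 and 2.38 in the retina, *Vhl* at 0.53 in 661W, and the intervals of *Egln2* and *Hif1an* include 0; *P4htm* is drawn for the retina alone.

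To compare the genes with each other, levels were scaled by exon length and library total to TPM, a relative transcript abundance. The length joins the annotated exons of a gene, whichever of its transcripts are expressed, so the order between genes depends on it. In eGFP retinas *P4htm* was highest at 64.4 ± 2.57 TPM (SD, *n* = 5). *Hif1an* (mean 37.3, range 35.2 to 38.9 TPM), *Vhl* (36.8 ± 2.63) and *Egln1* (35.8 ± 3.68) followed with overlapping values, then *Egln2* (22.02 ± 0.552) and *Egln3* (9.16 ± 1.75), each apart from its neighbour. In nsHif1a retinas *Egln1* led at 85.6 ± 25.6 TPM and *Egln3* reached 47.2 ± 23.2 TPM, and the values of every neighbouring pair from *Egln1* to *P4htm*, *Egln3*, *Vhl* and *Hif1an* overlapped. *Egln2*, at 20.8 ± 2.23 TPM, lay below *Hif1an*, its neighbour in the order, without overlap.

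The 3 prolyl hydroxylase transcripts together rose from 67.0 ± 3.79 to 154 ± 50.4 TPM between the retinal groups. *Egln3* made up 12.8, 18.3, 12.4, 12.7 and 12.3% of that sum in the eGFP retinas and 20.9, 33.2, 28.2, 29.3 and 35.4% in the nsHif1a retinas, without overlap. The share of *Egln2* was 32.9 ± 1.58% and 14.4 ± 3.95%, and that of *Egln1* 53.4 ± 3.17% and 56.2 ± 1.77%. These shares restate the changes above on another scale and were not tested.

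In 661W with eGFP the order was *Hif1an* (35.0 ± 1.14 TPM, *n* = 4), *Egln2* (28.7 ± 1.71), *Vhl* (24.1 ± 1.17), *Egln1* (19.9 ± 1.06), *Egln3* (15.1 ± 2.76) and *P4htm* (0.388 ± 0.218), with no overlap between neighbours. By TPM, *Egln2* was thus the highest of the prolyl hydroxylase transcripts in the eGFP cells, at 45.1 ± 2.98% of the sum of the 3. In the eGFP retinas *Egln1* was the highest. Without scaling by length, *Egln1* and *Egln2* averaged 62.2 and 62.0 CPM in the eGFP cells. Their order there thus rests on the exon lengths used, 8468 and 5837 bases. With nsHif1a, *Vhl* (35.5 ± 1.97 TPM) overlapped *Hif1an* (35.1 ± 1.96), and *Egln1* (26.5 ± 2.86) overlapped *Egln2* (26.9 ± 0.107).

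Between the eGFP groups, *P4htm* was higher in the retina by 7.43 on the log2 scale (SE 0.26), *Egln1* by 0.88 (SE 0.12, adjusted *p* = 2e-06) and *Vhl* by 0.63 (SE 0.05, adjusted *p* = 9.5e-10). These 3 of 6 genes were called where 81.3% of all genes were, with a median of 0.30 over all genes, so a call here says little about the members. *Egln2* was lower in the retina by a log2 difference of -0.37 and *Hif1an* higher by 0.11, both under the limit on size. *Egln3* differed by -0.71 (95% confidence interval -1.51 to 0.08, adjusted *p* = 0.08).

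**Figure D4:**
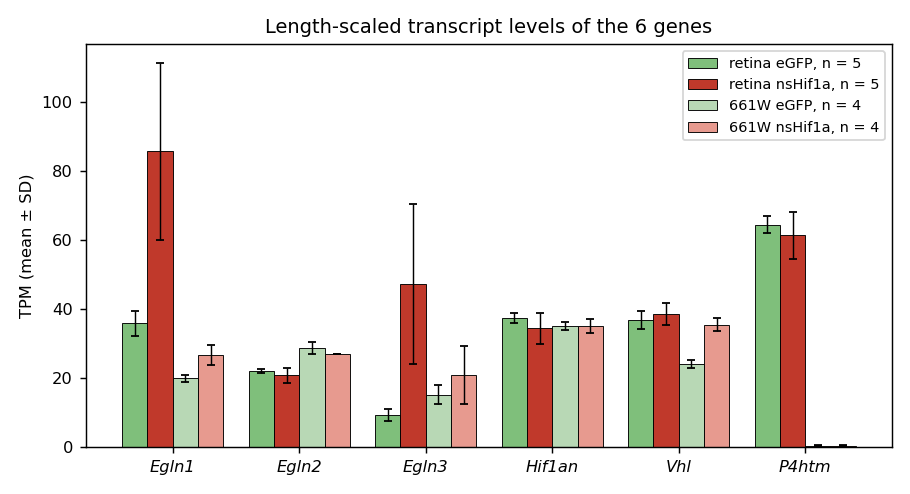
Length-scaled level (TPM, mean ± SD) of the 6 genes in the 4 groups, with 5 retinas or 4 cell libraries per bar. *Egln3* goes from the lowest bar of the eGFP retinas, 9.16 TPM, to 47.2 TPM with nsHif1a, and *P4htm* is at 64.4 TPM in eGFP retinas and 0.388 TPM in eGFP cells.

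The genes that work with the members were read from 5 lists, 55 genes in all. The partners of VHL in the ligase (elongins *Elob* and *Eloc*, *Cul2*, *Rbx1* and the neddylation factors *Nedd8*, *Ube2m* and *Cand1*) were not called in either experiment (0 of 7 and 0 of 7). Their median log2 fold changes were 0.06 and -0.05, in that order. The lowest adjusted *p* in the retina was that of *Nedd8* (0.13, adjusted *p* = 0.14), the ubiquitin-like protein that activates cullins, followed by *Eloc* (0.14, adjusted *p* = 0.19). In 661W, *Nedd8* (-0.09) and *Cand1* (-0.08), which exchanges the substrate receptors of cullins, both had an adjusted *p* of 0.30.

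Of 12 regulators of hydroxylase or HIF alpha stability, none was called in the retina and 1 in 661W, where 1.99% and 1.27% of all genes were called. *Siah2*, a ubiquitin ligase that removes EGLN proteins in hypoxia, was at 11.96 to 15.7 CPM in eGFP and 16.6 to 18.4 CPM in nsHif1a retinas (log2 fold change 0.34, adjusted *p* = 0.031, under the limit on size, where 5.79% of all genes passed the adjusted *p* alone). In 661W it rose from 17.9 to 20.6 CPM to 25.7 to 29.9 CPM (0.53, adjusted *p* = 0.0065), a call lost on the limit without eGFP replicate 1 (0.49), nsHif1a replicate 1 (0.47) or nsHif1a replicate 2 (0.47). *Limd1*, a scaffold that joins EGLN1 to VHL, had a log2 fold change of 0.30 in the retina (adjusted *p* = 0.015), also under the limit. *Wtip*, of the same family, had -0.26 in 661W (adjusted *p* = 0.068).

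Among 16 other protein hydroxylases of the 2-oxoglutarate family, 15 were tested in the retina and 3 were called, all up, where 1.08% of all genes were called up. *Jmjd6*, a lysyl hydroxylase of nuclear proteins, rose from 38.5 to 45.2 CPM to 58.9 to 75.2 CPM (log2 fold change 0.72, adjusted *p* = 0.00019). *P4ha2*, a collagen prolyl hydroxylase, rose from 19.4 to 23.1 CPM to 26.9 to 35.9 CPM (0.59, adjusted *p* = 0.0019), and *Plod2*, a collagen lysyl hydroxylase, from 24.2 to 29.4 CPM to 33.5 to 43.8 CPM (0.59, adjusted *p* = 0.0021). Among the retinas with *Xist* counts alone, *P4ha2* (0.58, adjusted *p* = 0.058) and *Plod2* (0.46, adjusted *p* = 0.088) lost the call, and *Plod2* also fell under the limit on size with the *Xist* class as a covariate (0.46, adjusted *p* = 0.038). *P4ha1*, the other main collagen prolyl hydroxylase, had 0.45 (adjusted *p* = 0.00047), under the limit. It passed the limit with the *Xist* class as a covariate (0.52, limma adjusted *p* = 0.0016) and among the retinas with *Xist* counts alone (0.52, adjusted *p* = 0.012). The median of the 15 was 0.06.

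In 661W, *P4ha1* was the 1 of 16 that was called, against 1.21% of all genes called up, at 117 to 122 CPM with eGFP and 151 to 239 CPM with nsHif1a (log2 fold change 0.71, adjusted *p* = 0.022). The call was lost in the blocked fit (0.66, adjusted *p* = 0.054), without eGFP replicate 1 (adjusted *p* = 0.056) or eGFP replicate 2 (adjusted *p* = 0.055), and on the limit on size without nsHif1a replicate 1 (0.45) or nsHif1a replicate 2 (0.45). *P4ha2* (0.50, adjusted *p* = 0.013), *Jmjd6* (0.46, adjusted *p* = 0.0065) and *Plod2* (0.46, adjusted *p* = 0.039) passed the adjusted *p* alone. *Plod2* was named here after its value was seen, to complete the count. *P4ha2* is at the limit and was called in the blocked fit (0.51, adjusted *p* = 0.0044).

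The 15 enzymes that make or use 2-oxoglutarate, succinate and fumarate, the cosubstrate and inhibitors of these hydroxylases, were not called in either experiment (0 of 15 and 0 of 15, medians -0.02 and -0.10). The lowest adjusted *p* values were those of *Idh3b* (-0.11, adjusted *p* = 0.11) and *Glud1* (0.12, adjusted *p* = 0.12) in the retina and *Fh1* (-0.20, adjusted *p* = 0.066) and *Sdhd* (-0.17, adjusted *p* = 0.17) in 661W. Of the 5 HIF subunits, none was called in the retina, where *Arnt2* (-0.17, adjusted *p* = 0.18) and *Epas1* (-0.07, adjusted *p* = 0.48) came first. In 661W, *Hif1a*, the gene delivered by the plasmid, was the 1 of 4 tested that was called, and *Arnt2* came next (-0.28, adjusted *p* = 0.40). Of all genes on the 5 lists, *Hif1a* alone had an effect that differed between retina and 661W by the test of the difference. Counts per gene do not separate the delivered copy from the cell's own, so neither *Hif1a* result is read as a response of the endogenous gene.

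**Figure D5:**
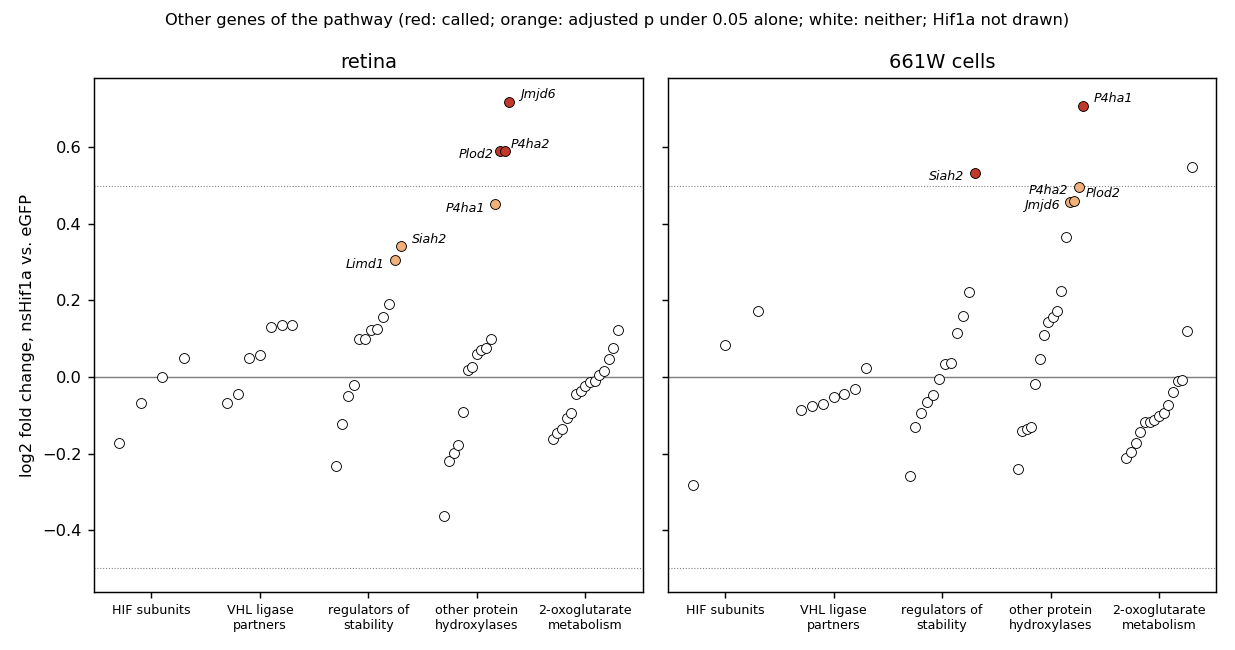
Log2 fold change of nsHif1a against eGFP for the genes of 5 lists in the retina (left) and 661W (right), sorted within each list, red where called, orange where the adjusted *p* alone is under 0.05, with dotted lines at ±0.5. *Hif1a*, called in 661W at 3.26, is drawn in neither panel. Called values of the other protein hydroxylases reach 0.72 in the retina and 0.71 in 661W, and the VHL ligase partners lie between -0.07 and 0.14 in the retina and between -0.09 and 0.02 in 661W.

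For each member that was called, the 3 genes with the most similar values over the libraries were found by the root mean square difference of log2 CPM, centred on the eGFP mean. The shift with nsHif1a is part of this difference, so fold changes near that of the member follow from the selection. Over the 10 retinas, *Egln1* was followed most closely by *Slc16a3*, a lactate transporter (0.113), *Espn*, an actin-bundling protein (0.154), and *Fosl2*, a subunit of AP-1 (0.183), which had log2 fold changes of 1.29, 1.26 and 1.27. *Egln3* was followed by the long noncoding RNA *Gm41608* (0.235), *Ccdc194* (0.246) and *H2-T13* (0.265), with log2 fold changes of 2.22, 2.60 and 2.43. With the *Xist* class as a covariate, *Ccdc194* (2.08, adjusted *p* = 0.099) and *H2-T13* (2.05, adjusted *p* = 0.087) lost the call, as they did among the retinas with *Xist* counts alone (adjusted *p* = 0.15 and 0.13). Over the 8 libraries of 661W, *Vhl* was followed by the histone gene *H2ac13* (0.0692), *Pgm1*, a phosphoglucomutase (0.0748), and the kinase gene *Nek1* (0.0819). Their log2 fold changes were 0.67, 0.47 and 0.51. *H2ac13* was not called (limma, adjusted *p* = 0.16), and *Pgm1* (adjusted *p* = 0.0018) stayed under the limit on size. *Nek1* (adjusted *p* = 0.011) lost the call in 9 of 21 alternatives.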

How the data were processed

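Bulk mRNA of 10 retinas and 8 libraries of 661W cells was sequenced from stranded libraries. The authors aligned the paired-end reads to GRCm39 and counted them per gene with featureCounts (Rsubread 2.18.0, gencode M36 basic annotation, antisense strand-specific mode), and deposited 1 table of raw counts per experiment, without filtering or normalization. Reads of near-identical genes can be lost or split in such counts. Groups came from the sample titles, and all 18 columns were used.

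Genes with low deposited counts were dropped by filterByExpr (minimum count 10), libraries were scaled by TMM in edgeR 4.0.16, and voomWithQualityWeights, lmFit and eBayes of limma 3.58.1 were run under R 4.3.3, once per experiment and once over all 18 libraries for the difference of effects and the eGFP groups. Adjusted *p*-values (Benjamini-Hochberg) cover all genes tested. A call needed an adjusted *p* under 0.05 and an absolute log2 fold change above 0.5, except for the difference of effects, which carried no limit on size. TPM used exon lengths of gencode M39. DESeq2 1.42.0 was an alternative. On simulated data with 200 genes changed 2-fold, 76% of the changed genes were called in the retinal design (18580 genes tested) and 78% in that of the cells (15728 genes).

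The depth of 12898220 to 17809585 counts per library puts 3 counts at 0.168 to 0.233 CPM, which covers counting error only. Same-numbered 661W libraries deviated together (*r* 0.227 to 0.269), so the replicate number was used as a block in an alternative, although 2 of the 4 numbers matched their own number best. No 2 libraries of a group agreed within sampling noise: the closest pair, 661W eGFP replicates 3 and 4, had a median chi-square 1.47 times that of sampling alone. Motif letters came from RefSeq promoter windows, whose table uses GRCm38.p6, matched exactly to GRCm39. The 6 genes and the lists were chosen with earlier results of these data known. Genes named in the text are the 6, *Hif1a*, of each list those called and the 2 with the lowest adjusted *p*, and the 3 nearest in pattern to each called member.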

Additional observations from a re-analysis of the deposited data

Results flagged for a closer look

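The nsHif1a effect on *Egln1* was larger in the retina than in 661W by 0.89 on the log2 scale (limma, adjusted *p* = 0.017), with all 5 nsHif1a retinas and all 4 nsHif1a cell libraries above their eGFP groups. The effect on *Egln3* was larger in the retina by 1.91 (adjusted *p* = 0.043), with 5 of 5 nsHif1a retinas but 2 of 4 nsHif1a cell libraries above every eGFP library. The effect on *Vhl* differed the other way, by -0.36 (adjusted *p* = 0.021), with 4 of 5 nsHif1a retinas and 4 of 4 nsHif1a cell libraries above their eGFP groups.

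Of 24 groups of libraries examined for a value far from the others, 1 held such a value, where chance gives about 1 in 20. *Egln3* was at 11.95 CPM in eGFP retina replicate 2, against 7.49 to 8.04 CPM in the other 4 eGFP retinas. The same retina had the highest summed microglia and macrophage markers of its group (151 CPM against 26.7 to 74.5 CPM) and the lowest rod markers (49482 CPM). Their part in the *Egln3* value was not tested.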

How the results depend on the processing

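In the retina 2 genes, *Egln1* and *Egln3*, were called under every alternative (edgeR, DESeq2, no sample weights, other scaling and filters, other limits, covariates, the replicate block) and with any 1 library left out (2 to 2), except among the retinas with *Xist* counts alone, where 1 was called. In 661W the count of 1 became 2 with no limit on the log2 fold change, 0 with a limit of 1, 3 within replicates 3 and 4 (a fit chosen after seeing the data), and 0 to 1 with 1 library left out, the 1 being *Egln3* in place of *Vhl* without nsHif1a replicate 1 or 2. The count of 3 genes whose effect differed between retina and 661W became 1 (*Vhl*) with no filter on low counts, where *Egln1* had an adjusted *p* of 0.15 and *Egln3* of 0.099, and 2 to 3 with 1 library left out. It became 2 without sample weights, where *Egln3* had an adjusted *p* of 0.065. With a limit of 0.5 on the size of the difference, *Vhl* (-0.36) was not called. The count of 3 between the eGFP groups became 5 with no limit, 1 with a limit of 1, and 3 to 4 with 1 library left out. No value changed its direction where it was called.

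The replicate block left 1 member called in 661W and 3 in the difference of effects with the block for the cells alone, and 2 when the retinas were blocked too, *Vhl* then at an adjusted *p* of 0.053. In the retina, where same-numbered libraries did not deviate together (*r* -0.148 to 0.138) and 1 of 5 matched its own number best, the block left 2. Over all genes, those called up in 661W numbered 193, 88 with the block, 332 with DESeq2 and 72 to 1213 over all alternatives, and those called down 10, 0, 34 and 0 to 682. In the retina 203 were called up (64 to 625) and 172 down (37 to 466, 52 with the block). In the difference of effects 227 (79 to 1664) and 262 (130 to 1456) passed. Where the cause of a shift was not the alternative's own construction, it was not tested. With 4 or 5 libraries per group, the intervals above limit what could be seen.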
